A study of Arabidopsis thaliana with 12 samples.

Results

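The BLJ line was compared directly with the SCR line on 6 of the 12 arrays of the study, the 3 arrays titled for a UAS copy of BLJ and the 3 titled for a UAS copy of SCR. All 12 were single-colour Affymetrix ATH1 arrays of RNA from green fluorescent cells sorted out of root tips of Arabidopsis thaliana seedlings, ecotype C24, at 5 days. Every group carried J0571, an enhancer trap line of wild-type background whose GAL4 and GFP are active in the ground tissue (cortex and endodermis). The control group of 3 arrays was J0571 alone, and it is used here to show which line departed from the ground state. By their labels, the BLJ line added UAS-BLJ and the SCR line UAS-SCR, constructs meant to be driven where J0571 is active. The labels name neither the number of independent transgenic lines nor how many plants were pooled. The 3 arrays of J0571 driving UAS-JKD are not compared here. They enter the shared processing of the 12 arrays, the choice of probe sets by brightness and the estimate of the spread. Of 22801 probe sets on the array, 55 control probe sets and the dimmest 30% of the rest were left out, and 15922 were tested.

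SCR (SCARECROW) is a GRAS family transcription factor. It acts with SHORT-ROOT, a protein that moves from the stele into the adjacent cell layer, to drive the formative division of the ground tissue stem cell daughter and to specify the endodermis. BLJ (BLUEJAY) is a C2H2 zinc finger factor of the INDETERMINATE DOMAIN family. With related proteins named after birds, JKD (JACKDAW) among them, it binds the SHORT-ROOT and SCR pair and helps to keep ground tissue identity. The comparison asks how the ground tissue transcriptome differs when 1 or the other of these partner factors is driven in the same cells.

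All values below are quantile-normalized intensities on a linear scale, and differences are BLJ line minus SCR line on the scale log2(value + 0.703), which understates differences of dim probe sets. The median tested probe set had a mean of 0.989, and no detection call was used, so that dim values cannot be judged against background. On the scale log2(value + 0.703), the arrays correlated across probe sets at Pearson's r between 0.952 and 0.979 for BLJ with SCR. Within the BLJ line r was 0.973 to 0.990, and within the SCR line 0.982 to 0.985. Probe sets are not independent replicates. On the deposited values SCR 2 stood apart from the other arrays of both lines, with an SD of the log2 values of 0.67 against 0.87 to 0.97, and was close to the controls (0.68 to 0.70). The 9 probe sets for RNAs spiked into the hybridization had a median difference of −0.04 (−0.14 to 0.06) after normalization and of 0.16 (−0.04 to 0.22) on the deposited values, with 0 called on either scale. Quantile normalization sets values by rank, and the brightest of the 9 averaged 56.0 in both lines after it. The normalized differences are thus no independent technical check. The labels name a one-cycle and a two-cycle labelling protocol and assign neither to an array; the part of the protocol in the results was not tested.

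The driven genes and the network around them were looked at first. The probe set of BLJ (AT1G14580) read 0.828, 0.795 and 0.789 with UAS-BLJ, 0.966, 0.938 and 1.04 with UAS-SCR and 0.946, 0.913 and 0.911 on the controls. It was lowest in the line labelled as driving it, with no overlap between the lines, and all but 1 of these values are below the median tested probe set. The difference was −0.16 ± 0.03 SE (limma, adjusted p = 0.0117), and the call was lost without BLJ 3. BLJ minus control was −0.11 (adjusted p = 0.0333). The probe set of JKD read 0.808, 0.768 and 0.765 with UAS-BLJ, 0.901, 0.973 and 0.924 with UAS-SCR and 0.841, 0.900 and 0.837 in the controls. JKD was lower in the BLJ line than in the SCR line (−0.14 ± 0.02 SE, adjusted p = 0.0139), a call lost without BLJ 3 or SCR 2, and the control arrays lay between the lines. The SCR gene has no named probe set in the annotation used here and was not analysed. Where the BLJ probe set lies relative to the UAS construct is not known here, so it checks neither the construct nor the labels, and the lines are named by their labels.

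Of 17 genes listed for the SHR, SCR and BIRD network, 6 were tested, 2 were lower in the BLJ line and 4 did not pass, against 1.55% of all tested probe sets called in either direction. The median difference of the 6 was −0.05, against −0.001 over all tested probe sets. The members that did not pass were AT3G45260, a further zinc finger gene of the family (−0.06, adjusted p = 0.114), the gibberellin signalling F-box genes SLY1 (−0.05) and SLY2 (−0.02), and the SCR relative SCL23, AT5G41920 (0.01). Without BLJ 3 no member was called, and without SCR 2 only BLJ was. Both calls were also absent with values under 1 set to 1, a setting under which these dim genes are flattened.

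In all, 247 probe sets differed between the lines (limma, adjusted p under 0.05), 1.55% of those tested. Of these, 155 were higher in the BLJ line (0.973%) and 92 were lower (0.578%). The median size of a called difference was 0.30 on the log2 scale, 61 exceeded 0.5 and 16 exceeded 1, while the median size over all tested probe sets was 0.04. An unadjusted p under 0.05 was reached by 2614 probe sets, or 16.4%. Among the 247, 134 have 1 gene, 4 have several and 109 are unnamed here, and 12 of the 30 largest called differences belong to probe sets with no gene name. In sorted cell populations, fewer cells of a type and less RNA per cell cannot be told apart. The split by direction depended on the scaling: with each array centred on its median, 278 were higher and 74 lower (79.0% higher against 62.8%). Of the 155 higher in the BLJ line, 65 were dimmer than the median tested probe set, as were 18 of the 92 that were lower.

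**Figure D1:**
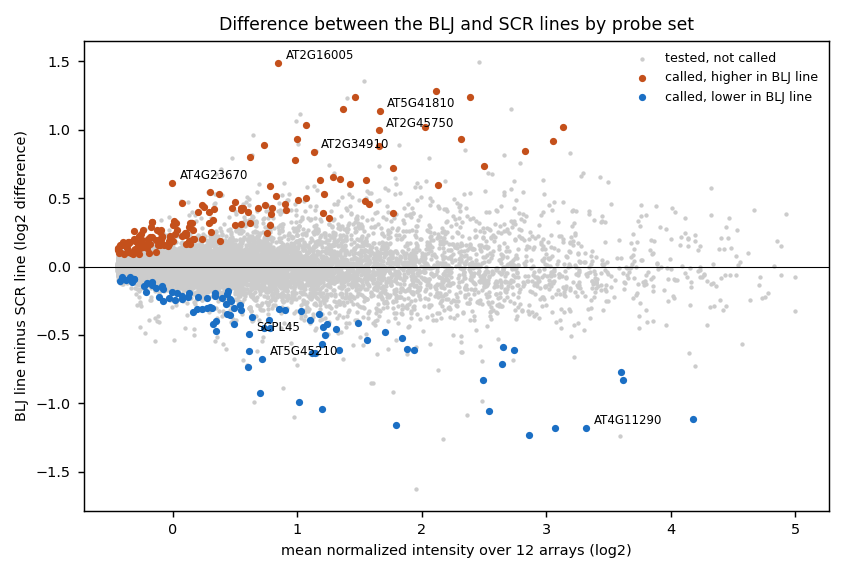
Each point is 1 of 15922 tested probe sets; the x axis is the log2 of the mean normalized intensity over 12 arrays and the y axis the log2 difference, BLJ line minus SCR line. Called probe sets are coloured (155 higher in orange, 92 lower in blue), the 8 labelled genes are those of the 30 leading genes whose call held whichever array was left out, and the largest called difference is 1.49 for AT2G16005.

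Named genes are the 15 highest and 15 lowest differences among called probe sets that have 1 gene, are brighter than the median tested probe set and have every BLJ array beyond every SCR array. Arrays of the 2 lines did not overlap for 23.7% of all tested probe sets, and for all 247 called ones. Of the 30 genes, 8 kept their call whichever of the 12 arrays was left out, 5 of them higher and 3 lower in the BLJ line. The other 22 were all lost without BLJ 3, without SCR 1 and without SCR 2. All 30 kept their sign in every alternative tried. Since the naming rule asks for lines without overlap, only the alternatives that rescale the arrays could have reversed a sign. Against the control, BLJ was called for 4.26% of tested probe sets and SCR for 0.396%; of the 15 genes higher in the BLJ line, 4 were called for BLJ minus control and 3 for SCR minus control, and of the 15 lower genes 5 and 1.

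The largest called difference was that of AT2G16005, which encodes a small protein with a lipid-recognition domain. It read 2.40, 3.79 and 5.33 with UAS-BLJ, 0.821, 0.773 and 0.996 with UAS-SCR and 1.03, 1.69 and 2.12 on the controls. All BLJ arrays were above all controls and all SCR arrays were below them, and the SCR mean is below the median tested probe set. The BLJ line averaged 3.84 ± 1.47 (SD, n = 3) and the SCR line 0.863 ± 0.117, a difference of 1.49 ± 0.21 SE (adjusted p = 0.00673). AT5G41810, given no role here, read 4.90, 4.41 and 7.26 with UAS-BLJ against 1.90, 1.95 and 2.41 with UAS-SCR and 2.97, 2.41 and 3.21 in the controls. Here the BLJ arrays were clear of the controls and the highest SCR array reached the lowest control (1.14 ± 0.15 SE, adjusted p = 0.00335). AT4G23670, of the major latex protein-like family, read 1.59, 1.35 and 1.90 with UAS-BLJ, 0.900, 0.673 and 0.855 with UAS-SCR and 0.755, 0.745 and 0.814 in the controls. The BLJ arrays lay above all control and SCR arrays, which overlapped (0.61 ± 0.07 SE, adjusted p = 0.00235); BLJ minus control was 0.64 (adjusted p = 0.000921) and SCR minus control 0.03.

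For the other 2 of the 5 leading genes that stayed higher whichever array was left out, the SCR line was the one that departed from the control. AT2G45750, which encodes a putative methyltransferase, read 4.17, 4.66 and 4.49 with UAS-BLJ, 1.80, 1.66 and 2.20 with UAS-SCR and 2.81, 3.39 and 4.66 on the controls. The SCR arrays lay below every control and the BLJ arrays overlapped the controls (1.0 ± 0.13 SE, adjusted p = 0.00335; SCR minus control −0.72, adjusted p = 0.0409). AT2G34910, given no role here, showed the same order, with 2.60, 2.97 and 3.06 with UAS-BLJ, 1.22, 1.29 and 1.38 with UAS-SCR and 2.06, 2.87 and 3.17 in the controls (0.84 ± 0.12 SE, adjusted p = 0.00411; SCR minus control −0.75, adjusted p = 0.0318).

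Of the 15 leading genes lower in the BLJ line, 3 kept their call whichever array was left out. AT4G11290, a class III peroxidase, read 7.05, 3.97 and 4.76 with UAS-BLJ, 13.0, 12.6 and 11.9 with UAS-SCR and 10.6, 9.63 and 10.8 on the controls. The BLJ arrays lay below every control and the SCR arrays above every control; the means were 5.26 ± 1.60 and 12.5 ± 0.588 (SD, n = 3 each), a difference of −1.18 ± 0.15 SE (adjusted p = 0.00297). AT5G45210, a TIR-NBS-LRR type resistance gene, read 1.29, 0.970 and 0.95 against 1.93, 2.48 and 1.96, with controls at 1.60, 1.67 and 1.53. Its controls lay between the lines as well (−0.67 ± 0.09 SE, adjusted p = 0.00335). SCPL45, a serine carboxypeptidase-like gene, read 1.21, 1.11 and 1.17 with UAS-BLJ, 1.86, 2.14 and 1.78 with UAS-SCR and 1.52, 1.40 and 1.54 in the controls (−0.49 ± 0.06 SE, adjusted p = 0.00237). All 3 genes were also called on the deposited values, with −0.95, −0.61 and −0.44.

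**Figure D2:**
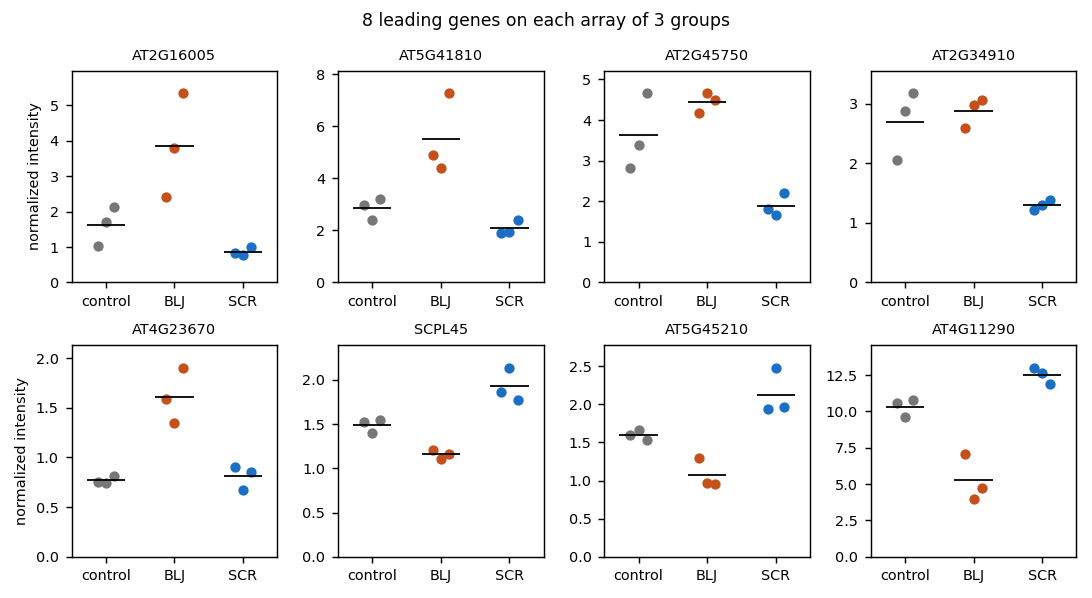
Normalized intensity (linear, axis from 0) of the 8 genes, among the 30 leading ones, whose call held whichever array was left out, on the 3 control, 3 BLJ and 3 SCR arrays, with a line at each group mean. The BLJ and SCR points do not overlap in any panel. The BLJ line alone is clear of all controls for AT4G23670 and AT5G41810, and the SCR line alone for AT2G45750 and AT2G34910. For AT5G41810 the SCR points reach up only to the lowest control.

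The other 10 leading genes higher in the BLJ line differed by 0.64 to 1.24. AT5G16010, a steroid 5-alpha-reductase family gene, read 5.85, 7.95 and 10.7 with UAS-BLJ and 2.61, 3.46 and 2.88 with UAS-SCR, with controls at 4.53, 4.38 and 7.60 (1.24 ± 0.23 SE, adjusted p = 0.0217). AT4G22610, a gene of the lipid transfer protein superfamily, read 4.13, 3.53 and 5.78 against 1.74, 1.19 and 1.94, with controls at 1.97, 1.55 and 3.29. For it the BLJ line was clear of the controls (1.15 ± 0.20 SE, adjusted p = 0.0154). The class III peroxidase AT5G17820 read 4.76, 5.16 and 6.14 with UAS-BLJ, 2.18, 1.94 and 2.77 with UAS-SCR and 3.96, 4.89 and 8.46 in the controls. Its BLJ arrays overlapped the controls, whereas its SCR arrays were below every control (1.02 ± 0.21 SE, adjusted p = 0.0291). AT5G55180, a family 17 glycosyl hydrolase gene, averaged 12.2 ± 2.37 against 5.64 ± 0.909 (SD, n = 3 each), a difference of 1.02. AT5G62350, of the pectin methylesterase and invertase inhibitor family, averaged 6.94 ± 1.41 against 3.27 ± 0.391 (0.93).

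The remaining differences were 0.88 for AT1G27030, 0.84 for AT5G10695, 0.80 for AT1G14960, a further major latex protein-like gene, 0.72 for AT3G43960, a papain-type cysteine protease gene, and 0.64 for AT2G16660, a major facilitator superfamily transporter gene. All 15 leading genes higher in the BLJ line were called on the deposited scale too, and with arrays centred on their medians. Without control 3, BLJ 1 and BLJ 3, the arrays with most heat shock transcript, some of the 15 differences were smaller and others larger. AT5G10695 then had 0.52, AT1G27030 0.58, AT2G16660 0.43 and AT4G22610 0.88, while AT3G43960 had 0.92 and AT1G14960 0.86.

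The other 12 leading genes lower in the BLJ line differed by −1.18 to −0.52. AT2G43610, a chitinase family gene, read 3.56, 7.97 and 4.25 with UAS-BLJ, 11.7, 11.3 and 13.7 with UAS-SCR and 8.71, 10.4 and 4.97 on the controls (−1.18 ± 0.27 SE, adjusted p = 0.0460). sks15 and sks16 belong to the SKU5-similar family, proteins related to multicopper oxidases. sks15 read 1.28, 3.33 and 1.71 against 4.49, 4.64 and 7.09, with controls at 3.06, 4.11 and 2.99 (−1.16 ± 0.24 SE, adjusted p = 0.0320). sks16 read 0.934, 2.15 and 1.07 against 2.87, 3.20 and 4.48, with controls at 2.23, 2.89 and 1.63 (−1.04 ± 0.22 SE, adjusted p = 0.0322). In all 3 genes BLJ 2 was the highest BLJ array and lay within the range of the controls, and without control 3, BLJ 1 and BLJ 3 the differences were −0.57, −0.57 and −0.55. EXO, a brassinosteroid-responsive cell expansion gene, read 1.41, 2.06 and 1.24 with UAS-BLJ, 4.99, 4.24 and 2.44 with UAS-SCR and 1.17, 1.44 and 1.38 in the controls. It was the SCR line that stood above the controls here, while the BLJ arrays overlapped them (−0.99 ± 0.18 SE, adjusted p = 0.0155; SCR minus control 1.13, adjusted p = 0.0318).

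AT2G14900, a gibberellin-regulated GASA family gene, was among the brightest of the leading genes, with 9.41, 6.13 and 7.85 with UAS-BLJ, 14.3, 15 and 13.3 with UAS-SCR and 14.3, 11.5 and 13.6 in the controls. The BLJ arrays were below every control and the SCR arrays overlapped the controls (−0.83 ± 0.14 SE, adjusted p = 0.0144; BLJ minus control −0.72, adjusted p = 0.0159). Prx37, a class III peroxidase, read 2.13, 1.72 and 1.88 with UAS-BLJ and 3.88, 3.16 and 2.86 with UAS-SCR, and both lines lay below the controls at 4.29, 4.0 and 4.71. It was lower still in the BLJ line (−0.61 ± 0.10 SE, adjusted p = 0.0139). The others were AT2G36930, a C2H2 zinc finger gene (−0.64), AT3G05900 (−0.63), the UDP-glycosyltransferase gene UGT73B4 (−0.61), AT1G76600 (−0.61), AT2G30930 (−0.60) and the linker histone gene AT1G06760 (−0.52). Only 4 of the 15 leading genes lower in the BLJ line were called on the deposited values, AT4G11290, EXO, AT5G45210 and SCPL45. On that scale AT1G76600 was −0.37, and AT2G30930 −0.41.

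The place of the control arrays was counted for the called probe sets. For 120 of the 247 called probe sets (48.6%) the BLJ arrays were clear of all controls while the SCR arrays overlapped them, against 13.1% of all tested probe sets. The reverse held for 56 (22.7%, against 11.2%), in which the SCR arrays alone were clear. In 38 (15.4%, against 0.452%) both lines were clear of the controls on opposite sides, 19 with BLJ above and 19 with BLJ below. In 9 both were clear on the same side, and in 24 both overlapped the controls. The BLJ mean was the farther from the control mean in 179 of the 247 (72.5%), against 51.0% of all tested probe sets. Choosing probe sets for a difference between the lines places the control mean between them more often by itself. That choice also makes it more likely that a line is clear of the controls. The counts by place, those of opposite sides included, therefore describe the called set and test nothing. Among the 15 leading genes higher in the BLJ line, the SCR arrays alone were clear of the controls in 8 and the BLJ arrays alone in 3. Among the 15 that were lower these numbers were 4 and 3, with both lines clear on opposite sides in 4.

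**Figure D3:**
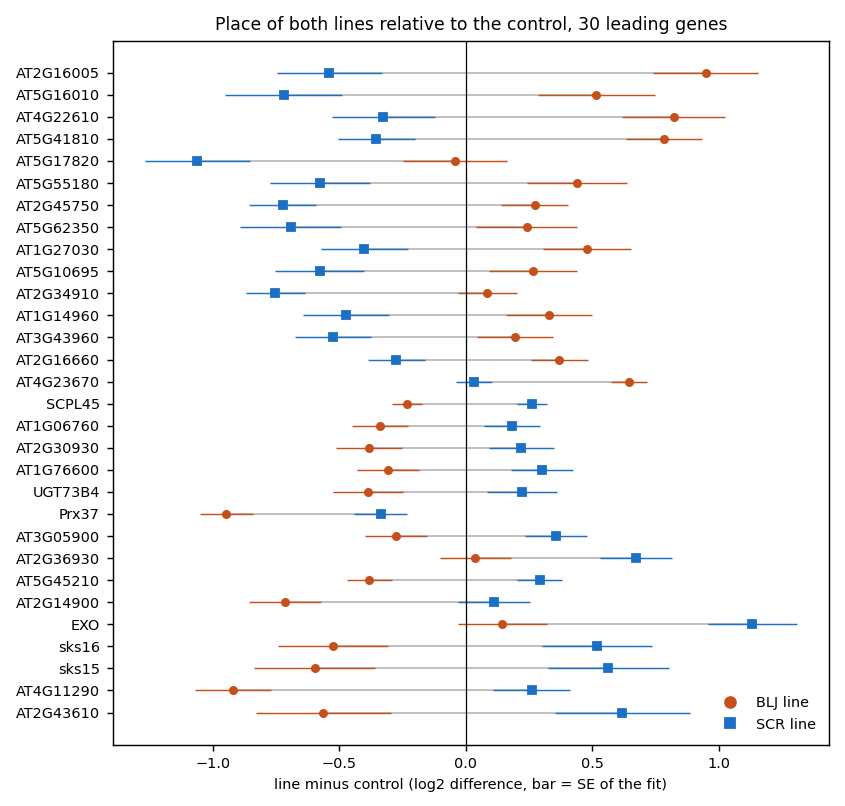
For the 30 leading genes, the log2 difference of the BLJ line (orange circles) and of the SCR line (blue squares) from the control, with bars of 1 SE from the fit; both share the 3 control arrays. AT4G23670 has BLJ at 0.64 and SCR at 0.03, AT5G17820 has SCR at −1.06 and BLJ at −0.04, and Prx37 has both lines below the control.

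Class III peroxidases, secreted enzymes that build and loosen cell walls, were present among the leading genes in both directions, and the family was put together with those values known. Of 73 members listed, 37 were tested: 1 was higher in the BLJ line, 4 were lower and 32 did not pass. The median of the 37 was 0.01, against −0.001 over all tested probe sets, of which 0.973% were called higher and 0.578% lower. Beside AT5G17820, AT4G11290 and Prx37, the called members were AT4G16270 (−0.42 ± 0.07 SE, adjusted p = 0.0151) and AT5G24070 (−0.30 ± 0.06 SE, adjusted p = 0.0320). AT4G16270 read 0.931, 0.808 and 0.850 with UAS-BLJ against 1.36, 1.62 and 1.20 with UAS-SCR and 1.47, 1.18 and 1.27 in the controls, so that the BLJ line was the lower one. AT5G24070 read 0.918, 1.11 and 0.942 against 1.24, 1.37 and 1.53, with controls at 1.19, 1.46 and 1.35. Arrays of the 2 lines did not overlap for 17 of the 37 members, against 23.7% of all tested probe sets. Members with large differences that did not pass were AT5G15180 (0.59, adjusted p = 0.108), AT1G30870 (0.47, adjusted p = 0.148) and AT3G01190 (−0.39, adjusted p = 0.196). AT4G08780 had −0.02. The number of called members was 1 without BLJ 3 or without SCR 2, 2 without SCR 1, 3 without BLJ 1 and 9 without control 3.

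**Figure D4:**
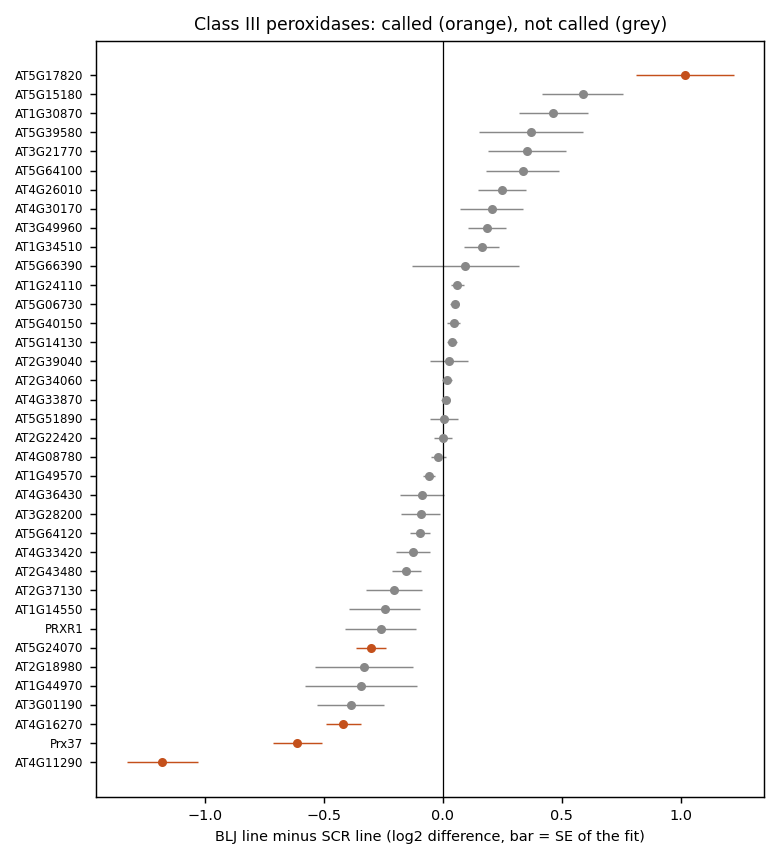
Log2 difference, BLJ line minus SCR line, of the 37 tested class III peroxidases in order of size, with bars of 1 SE from the fit; called members are orange and the others grey. The 5 called members run from −1.18 (AT4G11290) to 1.02 (AT5G17820), and 32 members did not pass.

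Other families are given as counts. All but the glutathione transferases and the family 9 glycosyl hydrolases were put together after values were seen. Over all tested probe sets 0.973% were called higher and 0.578% lower, 23.7% did not overlap between the lines and 16.4% had an unadjusted p under 0.05. All 3 tested SKU5-similar genes were lower in the BLJ line without overlap of arrays, and 2 passed; SKU5 itself, a gene of directional root growth, had −0.34 (adjusted p = 0.0967). Of 10 chitinase family genes tested, 1 was lower and 9 did not pass, among them AT2G43600 (−0.57, adjusted p = 0.0777) and AT2G43590 (−0.43, adjusted p = 0.196); the median of the 10 was −0.11. Of 5 major latex protein-like genes, 2 were higher in the BLJ line and 3 did not pass, with a median of 0.15. Of 17 serine carboxypeptidase-like genes, SCPL45 and SCPL34 (−0.41 ± 0.09 SE, adjusted p = 0.0322) were lower and 15 did not pass. Of 38 UDP-glycosyltransferase genes, UGT73B4 and UGT74D1 (−0.45 ± 0.10 SE, adjusted p = 0.0379) were lower and 36 did not pass. With 1 array left out, SCPL34 kept its call in 6 of 12 fits and UGT74D1 in 4. Of 10 tested glutathione transferase genes 0 passed in limma, 6 having an unadjusted p under 0.05 and GSTU22 having the largest value (−0.99, adjusted p = 0.0541).

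Of 4 families of wall-modifying enzymes and proteins, 2 held 1 call in each direction and 2 held none, against 0.973% called higher and 0.578% called lower over all tested probe sets. XTH32, a xyloglucan endotransglucosylase gene, read 1.19, 0.980 and 1.13 with UAS-BLJ, 0.782, 0.753 and 0.767 with UAS-SCR and 0.716, 0.764 and 0.769 in the controls. The BLJ arrays lay above all control and SCR arrays, which overlapped (0.29 ± 0.04 SE, adjusted p = 0.00335), a call kept whichever array was left out. XTH16 of the same family was lower in the BLJ line (−0.23, adjusted p = 0.0412), and 5 of the 7 genes tested did not pass. Of 19 trichome birefringence-like genes, which acetylate wall polysaccharides, TBL41 was higher (0.43, adjusted p = 0.0353) and TBL19 lower (−0.22, adjusted p = 0.0291). With 1 array left out, TBL41 kept its call in 6 of 12 fits, TBL19 in 8 and XTH16 in 4. Of 16 expansin genes and 11 family 9 glycosyl hydrolase genes 0 passed in limma (6 and 4 had an unadjusted p under 0.05, against 16.4% of all tested probe sets), with EXPA9 at −0.49 (adjusted p = 0.113), GH9B13 at −0.28 and GH9C1 at 0.17.

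Markers of the labelled tissue were measured only in part. Over the 12 arrays the endodermal genes GSO1, a receptor kinase of the Casparian strip pathway, and AT1G61590 lay between 2.94 and 6.71, and the cortex gene AT1G09750 between 0.995 and 2.33. The cortex genes AT1G62500 and AT1G62510 lay between 0.719 and 0.889, below the median tested probe set. So did the endodermal gene AT4G34600, at 0.735 to 0.854. Of 5 cortex genes listed 4 were tested. The nitrate transporter gene AT3G21670 was higher in the BLJ line and 3 did not pass, against 0.973% of all tested probe sets called higher. Of the 4, 3 had an unadjusted p under 0.05 in limma, against 16.4% of all tested probe sets. Arrays of the 2 lines did not overlap for 3, against 23.7%. AT3G21670 read 1.05, 1.04 and 1.18 with UAS-BLJ, 0.885, 0.904 and 0.926 with UAS-SCR and 0.915, 0.895 and 0.983 in the controls (0.15 ± 0.03 SE, adjusted p = 0.0432), and its call was kept in 3 of 12 fits with 1 array left out. AT1G09750 had 0.32 (adjusted p = 0.120). The dim AT1G62500 went the other way (−0.06, adjusted p = 0.239 in limma), every BLJ array lying below every SCR array. Of 18 endodermal barrier genes 3 were tested and 0 passed in limma, 0 also at an unadjusted p under 0.05, with a median of −0.08.

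Of markers of other root cell types 8 were tested and 0 passed in limma. An unadjusted p under 0.05 was reached by 5, against 16.4% of all tested probe sets. The 8 were the root hair expansins EXPA7 (0.18, adjusted p = 0.0893) and EXPA18 (0.13, adjusted p = 0.174), LHW (−0.19) and PHV (0.00) of the xylem list, OPS of the phloem (−0.08), AT4G04460 (0.06) and AT1G65570 (0.05) of the root cap, and BBM of the stem cell niche (−0.06). EXPA7 read 0.868, 0.912 and 0.928 with UAS-BLJ, 0.707, 0.678 and 0.759 with UAS-SCR and 0.863, 0.816 and 1.11 in the controls, the SCR arrays being lowest.

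In the hormone and stress lists few genes were measured. Over all tested probe sets 1.55% were called and 16.4% had an unadjusted p under 0.05 in limma. EXO was the single gene tested of 17 listed for brassinosteroids. Of 4 auxin response genes 0 passed in limma and 1 had an unadjusted p under 0.05, with LBD16, a lateral root regulator, at 0.21 (adjusted p = 0.103) and GH3.3 at −0.36. WES1, an auxin-conjugating enzyme gene, read 1.16, 1.19 and 1.23 with UAS-BLJ and 1.09, 1.08 and 1.07 with UAS-SCR, both below the controls at 1.43, 1.49 and 1.53, and the lines were not called different from each other (0.09, adjusted p = 0.352). F6'H1 (AT3G13610), the scopoletin synthesis enzyme induced by iron deficiency, read 4.39, 2.96 and 4.72 against 2.85, 1.80 and 2.01, with controls at 1.22, 1.49 and 1.99. The lines did not overlap, and the difference did not pass (0.69 ± 0.18 SE, adjusted p = 0.0735). The other 2 of 3 tested iron deficiency genes did not pass. Of 3 gibberellin, 3 mitosis and 3 flavonoid genes, and of 1 gene each of the DNA replication, phenylpropanoid and other INDETERMINATE DOMAIN lists, 0 passed in limma and 0 had an unadjusted p under 0.05. Of 2 wound response genes 0 passed and 1 had an unadjusted p under 0.05; STZ, a stress-induced zinc finger gene, had −0.53 (adjusted p = 0.160).

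Heat shock genes, which encode chaperones induced by protein misfolding, differed in level from array to array. All 5 tested of 21 listed were higher on every BLJ array than on every SCR array, with a median difference of 0.52, and 0 passed in limma, all 5 having an unadjusted p under 0.05 (23.7% of all tested probe sets did not overlap and 16.4% reached that p; adjusted p from 0.139 to 0.289). Their mean log2 value was 1.31, 0.96 and 1.63 on BLJ 1, 2 and 3, 0.78, 0.57 and 0.79 with UAS-SCR, and 0.64, 0.83 and 1.42 on the controls. BLJ 1, BLJ 3 and control 3 were thus the highest arrays. The small heat shock gene AT2G29500 read 3.07, 1.86 and 4.72 with UAS-BLJ, 1.16, 0.827 and 1.31 with UAS-SCR and 0.936, 1.59 and 4.20 in the controls. The summed level of the 5 ranged from 6.37 to 12.9 with UAS-BLJ, from 3.93 to 5.19 with UAS-SCR and from 4.31 to 10.7 in the controls. Without BLJ 1, BLJ 3 and control 3, 61 probe sets were called, of which 34 were among the 247, in a fit where BLJ 2 is the only BLJ array and is assumed to vary like the other groups. All 30 leading genes kept their sign there, which the absence of overlap between the lines had fixed in advance.

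The number of calls depended on single arrays. It was 36 without BLJ 3, 50 without SCR 2, 71 without SCR 1, 115 without BLJ 1 and 142 without JKD 1. It rose to 418 without BLJ 2 and to 584 without control 3, where all 247 calls were kept. Over the 6 fits that left out a BLJ or SCR array, 35 probe sets were called each time, 27 higher and 8 lower in the BLJ line, 17 of them with 1 gene. Beside the genes above, these were AT3G24450 (−0.33) and AT1G14390 (−0.30) among the lower, and AT2G47540 (0.47), AT3G11880 (0.44), AT5G57785 (0.43), AT1G22900 (0.32), AT5G44050 (0.17) and AT1G67000 (0.16) among the higher; they were picked out after their values were seen.

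**Figure D5:**
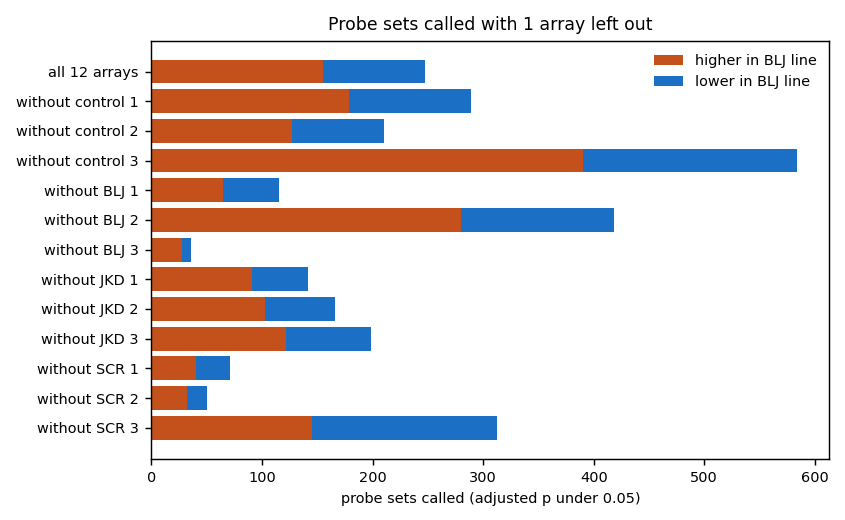
Number of probe sets called between the BLJ and SCR lines with all 12 arrays and with each array left out in turn, split into higher (orange) and lower (blue) in the BLJ line. The number runs from 36 without BLJ 3 to 584 without control 3, against 247 with all arrays.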

How the data were processed

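Each array has 1 deposited intensity for every probe set, linear in scale and made with MAS5 per the submitters' processing notes. The sources used here give no version, scaling, centring or background correction for it. Intensities ran from 0.513 to 44.2 without the control probe sets, 66.1% of them under 1, with array medians of 0.785 to 0.866. Groups and replicate numbers came from the array titles, and 0 columns were left unused.

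The members and gene lists were chosen with earlier results of these data known. The 55 control probe sets were left out, and the arrays were quantile-normalized, because the trimmed mean of JKD 1 was 105% of the average. Tests used log2(value + 0.703), with the 20th percentile of all values as offset, on the probe sets left after the dimmest 30% by mean were dropped. limma 3.58.1 in R 4.3.3 fitted a mean for each of 4 groups over 12 arrays, with trended and robust empirical Bayes moderation and Benjamini-Hochberg adjustment over 15922 probe sets; called means an adjusted p under 0.05. All adjusted p are from this fit. It was also run on simulated data in which every value had independent noise. Those data hold no shifts shared by a whole array, so that run cannot show how such shifts affect the calls. The replicates are labelled as independent biological ones, and whether they were grown apart is not said. The p-values therefore set each difference against the moderated spread between these arrays within the 4 groups. Arrays give no read depth; their number limits the precision.

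Named genes follow the rule stated in the results, plus the network genes, and the 2 most significant called members of each list per direction (2 members as values in lists where no call was made); other list members and genes called in every fit were picked after values were seen. Probe sets were named from the platform's annotation, updated through RefSeq TAIR10.1: of 22746, 13513 have 1 gene (13436 matched), 503 several and 8730 no name here. In lists the brightest probe set stood for each of 67 loci that have more than 1. Some families fixed by descriptions could not be filled, since the annotation has none, and were rebuilt by locus or symbol. Alternatives covered scaling, offset, filter, moderation, array weights, arrays in the fit, the replicate number and each array left out.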

Additional observations from a re-analysis of the deposited data

How the results depend on the processing

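Against 247 calls (155 higher and 92 lower in the BLJ line), the total was 134 with values under 1 set to 1 (68 and 66, over 9591 probe sets tested), 144 without the trend and robust options (76 and 68), 78 with the JKD arrays out of the fit (52 and 26), 61 without the 3 arrays highest in heat shock genes (40 and 21) and 1224 with array weights (750 and 474); these held 112, 114, 77, 34 and 247 of the 247. The deposited values gave 329 (235 and 94) and median-centred arrays 352 (278 and 74), of which 172 and 182 were among the 247. Offsets of 0 and 1, no filter and a 50% filter gave 225 to 252, with 207 to 244 of the 247; the 6 arrays alone gave 253, with 149 of the 247. Leaving out 1 array gave 36 to 584 called, 28 to 390 higher and 8 to 194 lower. The hybridization controls had a median of −0.035, and of 0.159 on the deposited values. With replicate number as a fixed block 639 were called (431 and 208), and with it as a random block 330 (201 and 129). Both block fits kept all 247 calls. Deviations of same-numbered BLJ and SCR arrays from their group means correlated at 0.18, 0.43 and 0.090. Pairs of unlike number ran from −0.32 to 0.19. BLJ 1 and BLJ 2 correlated best with the SCR array of their own number, and BLJ 3 with SCR 1. The main fit leaves the replicate number out, and what same-numbered arrays share was not tested. No called gene among those named reversed its sign. Only rescaling of the arrays could have reversed one, since the lines did not overlap for any called probe set. The cause of these shifts was not tested, except that fewer arrays or probe sets enter some fits. The 3 arrays per group limit what can be called.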
